A study of Mus musculus with 39 samples.

Results

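The serum amyloid A genes Saa1, Saa2, Saa3 and Saa4 were followed in the liver of mice exposed to an aggressor (AggE) and of control mice (Ctrl). The array carried 6 probes whose RefSeq accession belongs to these 4 genes, of 25903 RefSeq probes that were tested and 41174 probes that are no control. Saa1 was read by A_51_P361650 and A_52_P318673, Saa2 by A_51_P166886, Saa3 by A_51_P337308 and Saa4 by A_51_P142529 and A_52_P404329. Probes were assigned by accession and not by name, because the RefSeq table lists Saa2 as an older name of Saa1 and Saa1 as an older name of Saa2. All 39 mice were male C57BL/6J and singly housed, and each was hybridized to 1 array. The methods give an age of 5 to 6 weeks, with single housing from the week before the sessions. Age at tissue collection is not given, and it rises with the sessions and the rest that follow. AggE mice spent daily 6 h sessions in a mesh cage inside the home cage of an SJL aggressor, with 3 short physical contacts a session, and Ctrl mice had the same cages, schedule and food deprivation with no aggressor. Tissue was taken 24 hrs post-5-day stressor (4 Ctrl, 5 AggE), 24 hrs post-10-day stressor (4 Ctrl, 5 AggE), 1.5 wks post-5-day stressor (4 Ctrl, 5 AggE) or 4 wks post-10-day stressor (6 Ctrl, 6 AggE). A partition test, a short meeting with an aggressor behind a barrier, came 1 h before tissue collection, and the methods do not say separately whether Ctrl mice took it. The comparisons ask whether a stressor that ended 24 hrs, 1.5 wks or 4 wks earlier was followed by other levels of these transcripts.

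Serum amyloid A proteins are small apolipoproteins that travel on high density lipoprotein. SAA1 and SAA2 are the classical acute phase forms, made by hepatocytes when IL-6, IL-1 and TNF act through STAT3, NF-kB and C/EBP factors, and long exposure to them can end in amyloid deposits. Mouse Saa3 is also made outside the hepatocyte, by macrophages and adipocytes among others, and Saa4 encodes the constitutive form, which is known for a weak acute phase response.

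The upstream sequences of the 4 genes are shown because Saa1, Saa2 and Saa3 moved together in the liver channel of the arrays. Saa4 did not pass the test beside them. In the ratio of liver to reference RNA, Saa2 did not pass it either. Each is the 250 bases before the annotated start in GRCm38.p6 (RefSeq), written in the direction of the gene. They lie at chr7:46742981-46743230 on the minus strand for Saa1, chr7:46751583-46751832 on the plus strand for Saa2, chr7:46715677-46715926 on the minus strand for Saa3 and chr7:46732604-46732853 on the minus strand for Saa4. Capitals mark matches, on either strand, to GGGNNNNNCC for NF-kB and TTGCNNAA for C/EBP.
Saa1: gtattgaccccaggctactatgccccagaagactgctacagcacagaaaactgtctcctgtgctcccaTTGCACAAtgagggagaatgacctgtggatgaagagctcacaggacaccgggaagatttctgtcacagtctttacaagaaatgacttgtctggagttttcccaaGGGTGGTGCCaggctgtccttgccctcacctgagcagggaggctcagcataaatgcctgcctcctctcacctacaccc
Saa2: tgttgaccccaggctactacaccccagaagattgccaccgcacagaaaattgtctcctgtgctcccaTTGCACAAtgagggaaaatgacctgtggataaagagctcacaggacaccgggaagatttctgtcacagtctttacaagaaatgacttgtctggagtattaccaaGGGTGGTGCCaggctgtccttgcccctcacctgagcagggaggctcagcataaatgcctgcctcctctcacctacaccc
Saa3: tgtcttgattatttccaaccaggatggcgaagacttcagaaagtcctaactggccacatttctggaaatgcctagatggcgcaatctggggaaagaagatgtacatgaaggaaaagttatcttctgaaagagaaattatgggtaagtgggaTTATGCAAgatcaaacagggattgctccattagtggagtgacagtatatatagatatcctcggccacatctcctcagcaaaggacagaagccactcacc
Saa4: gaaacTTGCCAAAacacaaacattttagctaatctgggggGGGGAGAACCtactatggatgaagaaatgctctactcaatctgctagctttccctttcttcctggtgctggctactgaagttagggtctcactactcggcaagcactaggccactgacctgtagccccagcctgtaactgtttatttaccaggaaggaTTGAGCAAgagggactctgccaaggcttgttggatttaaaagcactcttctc
Saa1 and Saa2, which point away from each other, shared 94.8% of 251 aligned bases, while the other pairs of these windows shared 43.8% to 48.5%. Both carried the NF-kB letters GGGTGGTGCC, 78 to 69 bases before the start of Saa1 and 79 to 70 before that of Saa2, and the C/EBP letters TTGCACAA, 182 to 175 and 183 to 176 bases before the start. The Saa3 window had a C/EBP match on the other strand, 99 to 92 bases before the start, and no NF-kB match by these letters. Saa4 had an NF-kB match at 210 to 201 and C/EBP matches at 245 to 238 and, on the other strand, at 52 to 45. None of the 4 windows held TTCNNNGAA for STAT or TATAAA for the TATA box. Among 32851 RefSeq promoter windows of the same length, the NF-kB letters occurred in 45.8%, the C/EBP letters in 9.56%, the STAT letters in 7.02% and TATAAA in 12.4%, so a match is a description of these letters and of nothing more. The motifs were chosen with these sequences at hand.

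Liver RNA was labeled with Cy-5 and a common mouse reference RNA with Cy-3, with no dye swap, and each spot gives a log2 ratio of liver to reference as well as the level in each channel. Between 20% and 79.7% of the RefSeq probes were well above background in Cy-5, and 37.1% to 82.4% in Cy-3. The 6 serum amyloid A probes were well above background in Cy-5 on 38 or 39 of 39 arrays and never saturated. AggE and Ctrl arrays shared no slide at either 24 hr point, where slide and group therefore cannot be told apart. The arrays were scanned on 2 days, all 24 hr arrays on the first and all 4 wk arrays on the second. At 1.5 wks, 1 AggE and 1 Ctrl array were scanned on the second day and the others on the first. The labels disagree on the regimen of some mice: in the 1.5 wks post-5-day comparison the titles of Ctrl mouse 4 and of the 5 AggE mice carry a 10, as those of the 10-day groups do, and in the 24 hrs post-5-day comparison the descriptions of the 5 AggE mice name 1 day of stress in one place and 5 days in another. The groups follow the source names, which give all of these mice 5 days. The title of Ctrl mouse 4 at 1.5 wks also begins with HC, where those of the other Ctrl mice begin with C, and what this marks is not stated. Its source name calls it a control like the others.

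At 24 hrs post-5-day stressor the liver signal of Saa1, Saa2 and Saa3 was far higher in AggE than in Ctrl mice, and that of Saa4 was not called. For Saa2 the Cy-5 level, as log2 of the normalized intensity, was 8.58, 8.36, 9.15 and 7.85 in the 4 Ctrl mice and 15.33, 15.10, 12.33, 15.70 and 14.99 in the 5 AggE mice. No AggE mouse came near the Ctrl range, and mouse 3 stood below its 4 group mates. The change in Cy-5 alone was 6.21 (SE 0.56, limma adjusted p = 1.22e-08), a 73.8-fold difference with a 95% interval of 5.06 to 7.35 on the log2 scale. For Saa1, probe A_52_P318673 read 8.20, 8.10, 9.06 and 7.70 in Ctrl and 15.16, 14.66, 11.86, 15.29 and 14.58 in AggE mice. Probe A_51_P361650 of the same gene read 8.15, 7.37, 8.62 and 7.17 in Ctrl and 14.23, 14.28, 11.25, 14.91 and 14.19 in AggE mice. The same AggE mouse was again lowest and again above every Ctrl mouse. The changes in Cy-5 alone were 6.05 (SE 0.51, limma adjusted p = 2.1e-09) and 5.94 (SE 0.56, limma adjusted p = 1.83e-08), or 66.1-fold and 61.5-fold. For Saa3 the Cy-5 levels were 6.87, 6.79, 7.33 and 6.54 in Ctrl and 11.78, 11.90, 9.06, 12.35 and 11.59 in AggE mice. Mouse 3 was lowest here as well, and the change was 4.45 (SE 0.41, limma adjusted p = 1.22e-08), or 21.9-fold, which grew to 5.19 on the log2 scale with no background correction. In Cy-5 alone, 4 of the 6 probes were called higher, where 2.19% of all probes were, and these 4 had no overlap between AggE and Ctrl, which held for 2.02% of all probes with a value on each array. They ranked 1, 2, 3 and 5 of 25903 by their change. In whole liver, more cells of a type and more RNA per cell cannot be told apart.

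**Figure D1:**
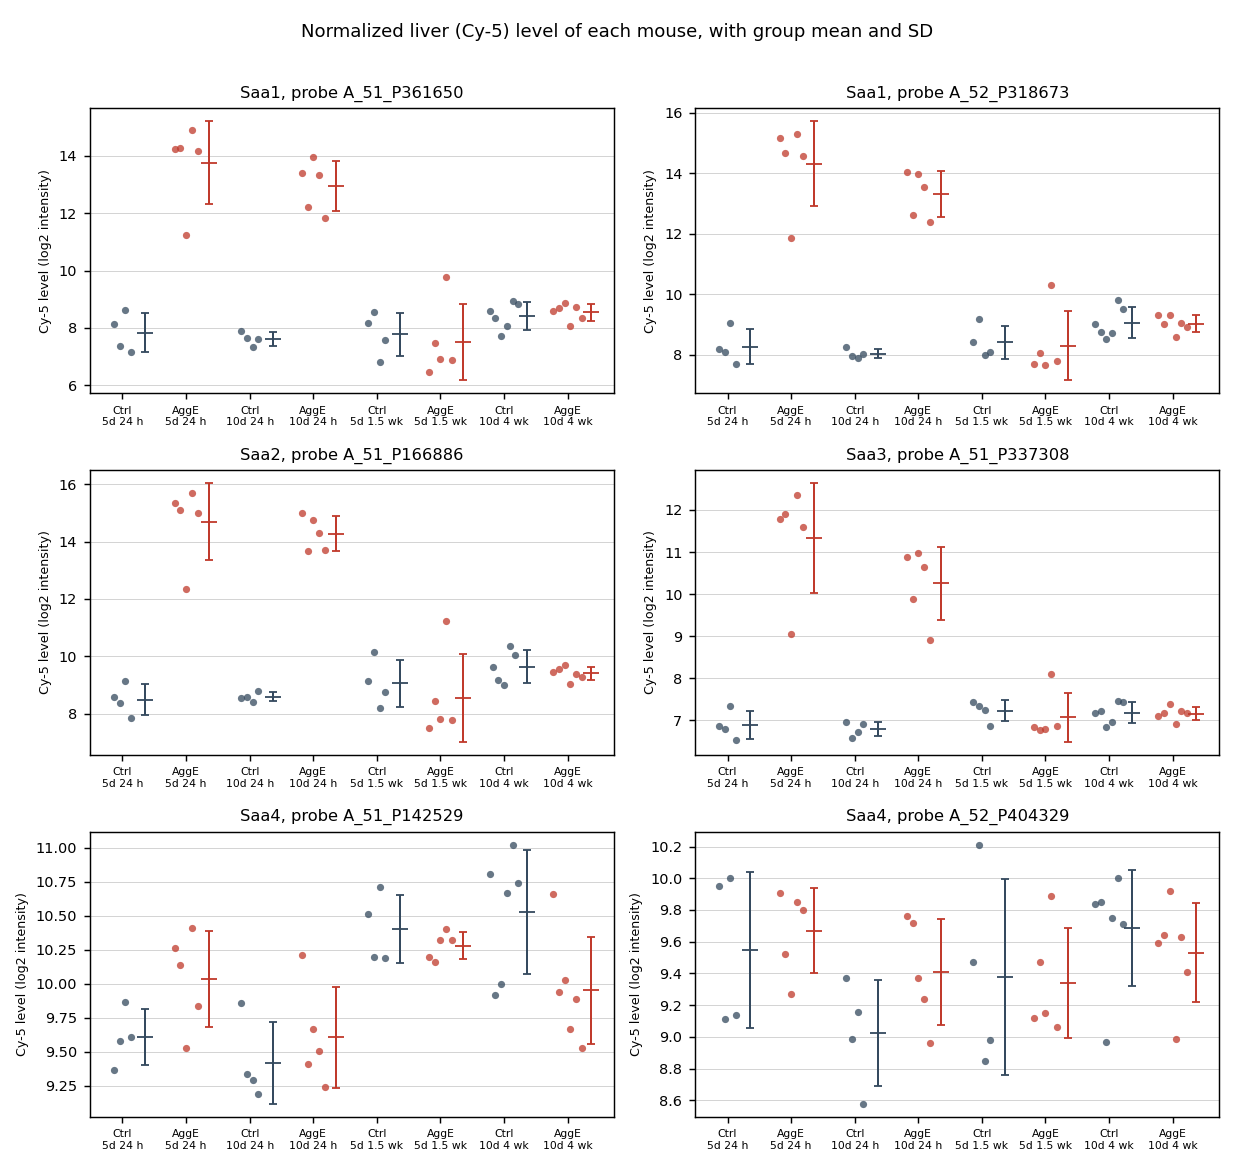
Normalized Cy-5 level (log2 intensity, vertical axes with their own range per panel) of each mouse in the 8 groups for the 6 serum amyloid A probes, AggE in red and Ctrl in dark grey, with the group mean (dash) and SD (bar) beside the points. For Saa1, Saa2 and Saa3 all AggE mice at both 24 hr points lie above all mice of the other 6 groups, and for Saa4 the groups overlap.

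Set against the reference channel, the same livers gave smaller changes for Saa1 and Saa2. The log2 ratio of Saa3 was -0.85, -0.90, -0.38 and -1.29 in Ctrl and 3.68, 4.00, 1.31, 4.27 and 3.24 in AggE mice, a change of 4.16 (SE 0.38, limma adjusted p = 2.72e-08) that nearly matches the change in Cy-5 and was 5.39 with the signals processed by Feature Extraction. For Saa1 A_52_P318673 it was 1.83, 1.71, 2.64 and 1.35 in Ctrl and 5.92, 6.20, 5.05, 6.00 and 4.86 in AggE mice, a change of 3.72 (SE 0.42, limma adjusted p = 1.41e-06), or 4.44 with no normalization between arrays. Both sets were free of overlap. Saa1 A_51_P361650 changed by 2.80 (SE 0.59, limma adjusted p = 0.00697), from 1.79 to 3.82 in Ctrl to 4.82 to 5.98 in AggE mice. Its call depends on the processing: the change was -0.04 with the signals processed by Feature Extraction (limma adjusted p = 0.99) and 2.63 with slide entered as a random block (limma adjusted p = 0.407). For Saa2 the ratio was 3.72, 3.34, 3.95 and 2.92 in Ctrl and 4.13, 4.40, 5.19, 4.49 and 3.67 in AggE mice, which overlap. The change of 0.89 (SE 0.56, limma adjusted p = 0.442) was not called, its 95% interval was -0.25 to 2.04, and its sign turned with an offset of 16 (-0.17) or 0 (-0.63) and with the processed signals (-0.03). On the ratio scale 3 of 6 probes were thus called higher, where 1.59% of all probes were (3.66% in either direction), and the same 3 did not overlap, which held for 2.56% of all probes.

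**Figure D2:**
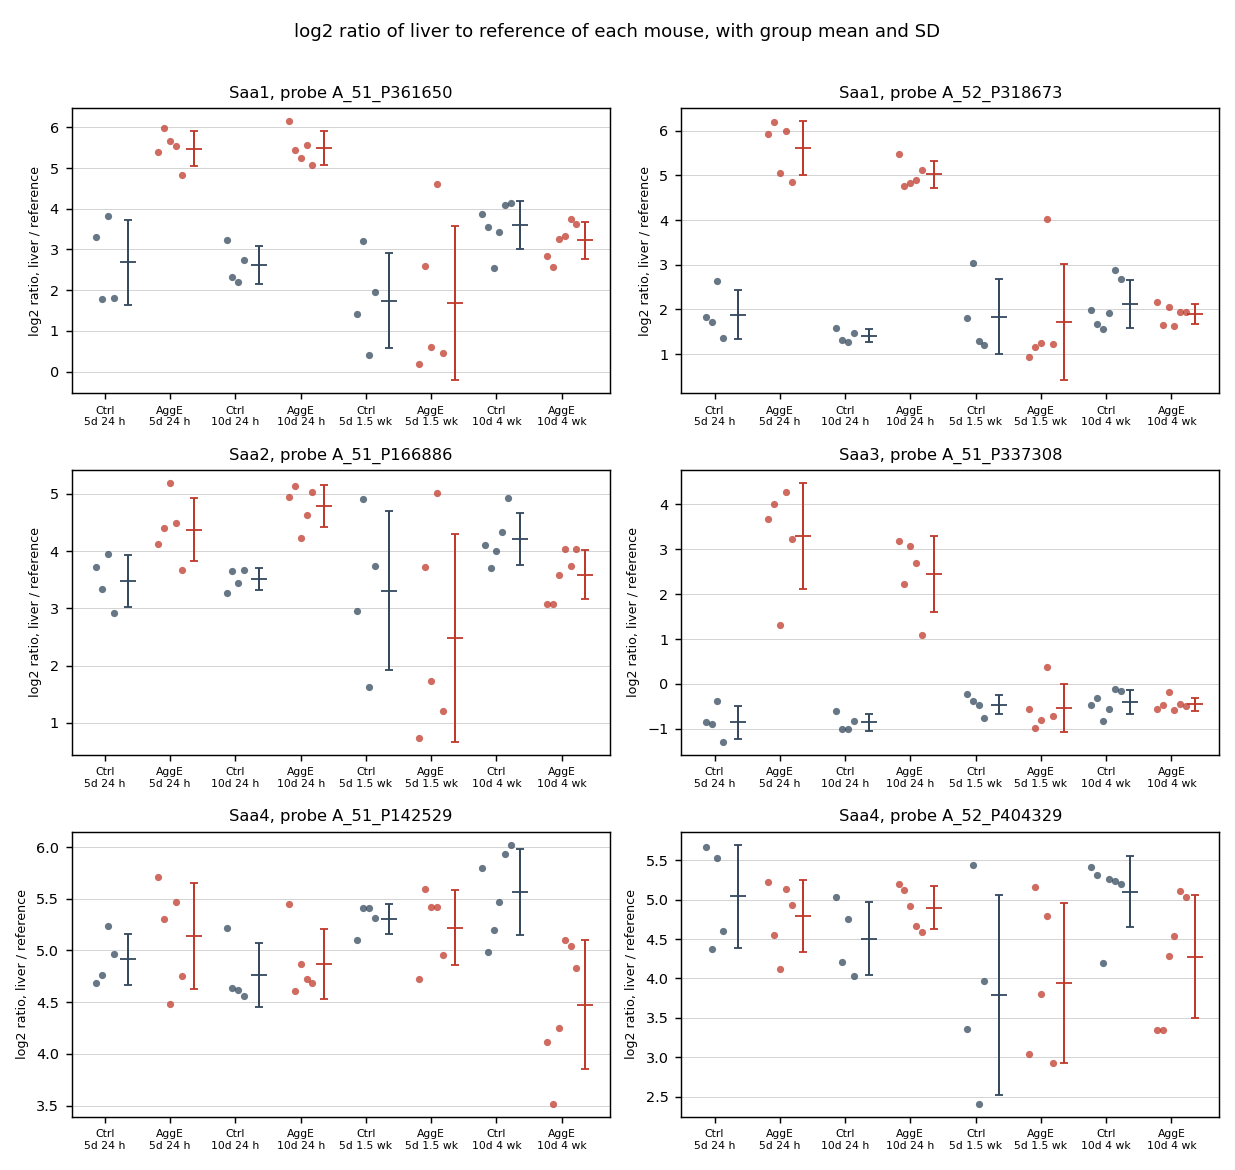
Log2 ratio of liver to reference (vertical axes with their own range per panel) of each mouse in the 8 groups for the 6 probes, drawn as in the plot of Cy-5 levels. Saa3 and Saa1 A_52_P318673 are set apart in AggE mice at both 24 hr points, whereas Saa2 overlaps between Ctrl and AggE at 24 hrs post-5-day stressor although its Cy-5 levels do not.

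The gap between both scales lies in the Cy-3 channel, where the signal at the Saa1 and Saa2 probes was also higher in AggE mice although the same reference RNA was used on every array. The median Cy-3 intensity of the Saa2 spot was 96, 90, 160 and 90 in Ctrl and 8235.5, 7075, 884, 8281 and 10693 in AggE mice of the first 24 hr comparison, after 5 days, beside Cy-5 intensities of 293, 182, 516 and 161.5 in Ctrl and 34500, 26863.5, 2083, 38170 and 35312 in AggE mice. AggE mouse 3, lowest in Cy-5, was also lowest in Cy-3. After normalization the Cy-3 change was 5.06 for Saa2 (SE 0.43, limma adjusted p = 3.66e-09), 3.93 for Saa1 A_51_P361650 (SE 0.37, limma adjusted p = 1.3e-08) and 1.99 for Saa1 A_52_P318673 (SE 0.28, limma adjusted p = 7.55e-06). At A_51_P361650, Cy-3 was not well above background in Ctrl mice 2 and 4, so the size of its change is uncertain. For Saa3, whose reference signal lay between 1304 and 2244.5 in the AggE mice and between 1363 and 1512.5 in Ctrl mice, the Cy-3 change was 0.16 (SE 0.06, limma adjusted p = 0.0554) and not called. With background subtracted, Cy-3 at the Saa2 spot was 21.6% to 41.6% of Cy-5 in AggE and 25.2% to 46.4% in Ctrl mice. On the same AggE arrays, the 15 to 157 other spots that were as bright or brighter in Cy-5 included spots with a Cy-3 share of 1.09% to 2.73%, and their median share was 3.57% to 26.0%. At 24 hrs post-5-day stressor the Cy-3 channel differed widely, with 22.9% of all probes called and 7.45% called higher, of which 5 probes were at least 2-fold higher and 3 of these 5 were the Saa1 and Saa2 probes. At 24 hrs post-10-day stressor only 0.0193% of all probes, or 5, were called higher in Cy-3, namely the same 3 probes with Serpina3n and Plekha1, the last named here after its value was seen. The cause of the Cy-3 signal, and whether Saa1 and Saa2 RNA bind each other's probes, was not tested, and a ratio with a moving reference understates a change in Cy-5.

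**Figure D3:**
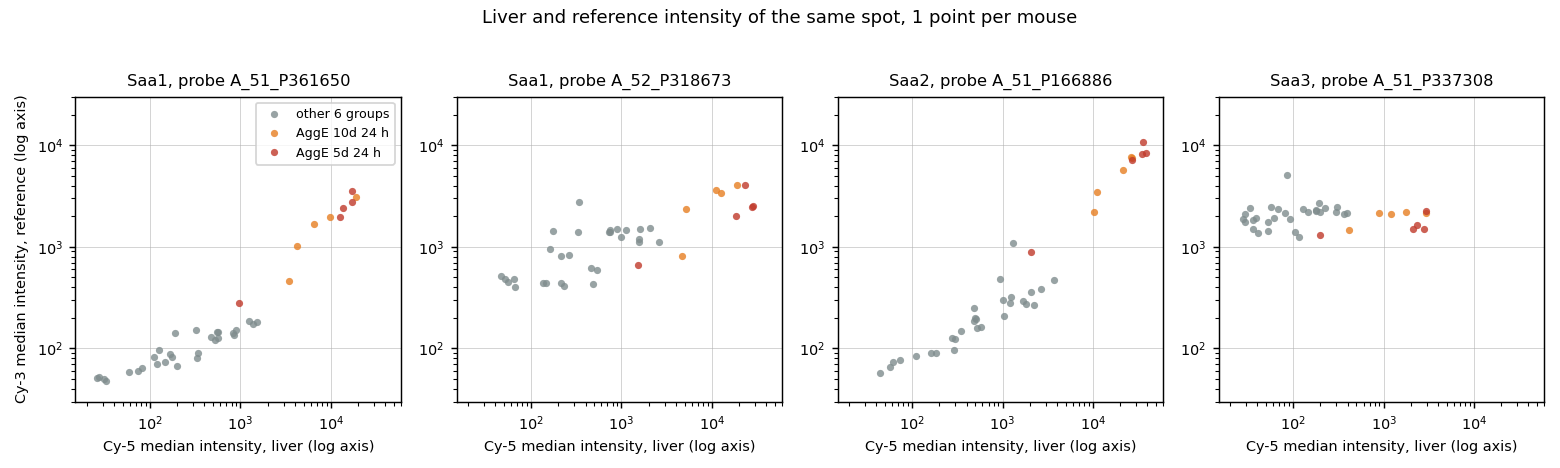
Median intensity of the same spot in Cy-5 (liver, horizontal log axis) and Cy-3 (reference, vertical log axis), 1 point per mouse, for the Saa1, Saa2 and Saa3 probes, with the AggE groups at 24 hrs in red and orange and the other 6 groups in grey. Cy-3 climbs with Cy-5 at the Saa2 and Saa1 A_51_P361650 spots and less steeply at Saa1 A_52_P318673. At Saa3 it runs from 1238 to 5083 and shows no climb with Cy-5.

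At 24 hrs post-10-day stressor the pattern came back in other mice. The Cy-5 level of Saa2 was 8.55, 8.60, 8.42 and 8.80 in Ctrl and 14.99, 13.66, 14.74, 14.31 and 13.70 in AggE mice. The change was 5.69 (SE 0.56, limma adjusted p = 2.19e-07), or 51.5-fold (5.08 with arrays set to 1 median), with all AggE mice above all Ctrl mice and no mouse standing apart. Saa1 rose in Cy-5 by 5.28 at A_52_P318673 (SE 0.51, limma adjusted p = 1.51e-07) and by 5.34 at A_51_P361650 (SE 0.56, limma adjusted p = 4.54e-07), with AggE levels of 12.39 to 14.04 and 11.84 to 13.96. For Saa3 the Cy-5 levels were 6.95, 6.58, 6.72 and 6.92 in Ctrl and 10.88, 9.88, 10.98, 10.64 and 8.90 in AggE mice, a change of 3.46 (SE 0.41, limma adjusted p = 3.41e-06), or 4.17 with no background correction. AggE mouse 5 was the lowest for Saa1 and Saa3, and all groups were free of overlap. On the ratio scale Saa1 A_52_P318673 changed by 3.61 (SE 0.42, limma adjusted p = 2.87e-06), Saa3 by 3.31 (SE 0.38, limma adjusted p = 2.15e-06; 4.40 with processed signals) and Saa1 A_51_P361650 by 2.87 (SE 0.59, limma adjusted p = 0.0353). The last call was lost in 8 of 15 alternatives, among them processed signals (0.10) and offsets of 16 and 0 (1.96 and 1.11) with limma adjusted p = 1, and the replicate block (2.93, limma adjusted p = 0.0642). With 1 mouse left out the change stayed at 2.71 to 3.07, while its limma adjusted p ran from 0.0495, without AggE mouse 5, to 0.246 and lay above the limit of 0.05 for each of the 8 other mice left out. The Saa2 ratio was 3.27, 3.66, 3.44 and 3.67 in Ctrl and 4.94, 5.14, 4.23, 4.63 and 5.03 in AggE mice, without overlap but not called, at 1.28 (SE 0.56, limma adjusted p = 1), and its sign turned with the processed signals (-0.06). On the ratio scale 3 of 6 probes were called higher, where 0.0695% of all probes were, and in Cy-5 alone 4 of 6, where 0.0965% were. Ranges were apart for 4 of 6 probes on either scale, where this held for 0.993% of all probes by ratio and 1.09% by Cy-5. The Cy-3 changes were 4.25 for Saa2 (limma adjusted p = 3.94e-07), 3.14 and 1.46 for Saa1 A_51_P361650 and A_52_P318673 (limma adjusted p = 5.89e-06 and 0.0302), and 0.07 for Saa3 (limma adjusted p = 0.904). Cy-3 at A_51_P361650 was not well above background in Ctrl mouse 2.

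No difference between regimens was called at 24 hrs for any of the 6 probes, where 0.027% of all probes were called by ratio and 0% in Cy-5. The change after 5 days minus that after 10 days was 0.85 for Saa3 on the ratio scale (95% interval -0.24 to 1.94, limma adjusted p = 0.822) and 0.99 in Cy-5 (-0.18 to 2.16, limma adjusted p = 0.663). For Saa2 in Cy-5 it was 0.52 (-1.10 to 2.14) and for Saa1 A_52_P318673 0.77 (-0.69 to 2.23). These intervals span differences in both directions. AggE and Ctrl shared no slide at 24 hrs, so a random block for slide cannot part slide from group there. With that block, the 24 hr changes in Cy-5 after 5 days stayed called for Saa1, Saa2 and Saa3. They were 4.45 to 6.20, with limma adjusted p of 4.28e-08 to 3.32e-07. Leaving out each mouse in turn, the 24 hr changes lay between 4.20 and 6.80 after 5 days and between 3.28 and 5.84 after 10 days, all called.

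Within a mouse, Saa1 and Saa2 changed by amounts that were not told apart in Cy-5. Both had larger measured changes than Saa3, whose spots were dim in Ctrl mice. The change of Saa1 A_52_P318673 minus that of Saa2 was -0.16 after 5 days (exact permutation p = 0.0873, adjusted 0.14) and -0.41 after 10 days (exact permutation p = 0.0397, adjusted 0.0681). Saa1 exceeded Saa3 by 1.60 and 1.82, and Saa2 exceeded Saa3 by 1.75 and 2.23, each with the smallest exact two-sided permutation p that 5 against 4 mice allow, 0.00794 (adjusted 0.0191). Against Saa4 A_51_P142529 the Cy-5 changes of the other 3 genes were larger by 3.27 to 5.78, with the same p. Over the 6 gene pairs and 4 comparisons, 11 of 24 such tests passed in Cy-5, the 10 above and Saa1 against Saa4 at 4 wks (0.55, exact permutation p = 0.0152, adjusted 0.0332). By ratio 10 of 24 passed, 8 of them at 24 hrs and at 4 wks Saa1 and Saa3 against Saa4 (0.87 and 1.04, adjusted p = 0.0382 and 0.0346, exact permutation). Without 1 AggE mouse of a 24 hr group 0 of 24 passed by ratio, but 4 against 4 mice raise the smallest p that permutation allows, so this says nothing about stability. The ratio put Saa1 above Saa2 by 2.83 and 2.33 (adjusted p = 0.0382 and 0.0346, exact permutation) and did not part Saa1 from Saa3 (-0.43 and 0.30, adjusted p = 0.465 and 0.789, exact permutation), so the order of the genes depends on the scale. Different probes can bind and saturate differently, so these sizes compare probes as much as genes. In Ctrl mice after 5 days the Saa3 spot read 52.5, 41, 104 and 36 in Cy-5, over a local background of 15 to 16. The Saa1 A_52_P318673 spot read 212, 146.5, 481 and 135. With no background correction the Cy-5 changes were 5.19 for Saa3 and 6.32 for Saa1 after 5 days, and 4.17 and 5.59 after 10 days. The part of the offset added to the signals in the gap to Saa3 was not tested.

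At 1.5 wks post-5-day stressor no serum amyloid A probe was called on any scale, nor was any of the 25903 probes by ratio (0%), while 0.158% were called in Cy-5 alone. The Cy-5 level of Saa2 was 9.13, 10.14, 8.19 and 8.77 in Ctrl and 7.51, 8.43, 7.83, 11.23 and 7.78 in AggE mice, a change of -0.50 (SE 0.56, 95% interval -1.65 to 0.65). That of Saa3 was 7.44, 7.35, 7.24 and 6.87 in Ctrl and 6.83, 6.76, 6.79, 8.10 and 6.86 in AggE mice (-0.16, SE 0.41). AggE mouse 4 was the highest of its group at each of the Saa1, Saa2 and Saa3 probes, and its 4 group mates lay at or below most Ctrl mice. For Saa1 the Cy-5 changes were -0.11 (SE 0.51) at A_52_P318673 and -0.27 (SE 0.56) at A_51_P361650. Without AggE mouse 4, all Cy-5 changes stayed uncalled, and over the 9 mice left out in turn that of Saa2 ran from -1.17 to -0.14.

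At 4 wks post-10-day stressor Saa1, Saa2 and Saa3 were uncalled again. Saa2 had Cy-5 levels of 9.0 to 10.36 (median 9.64) in 5 Ctrl mice, Ctrl mouse 4 being left out for a spot marked as an outlier, and of 9.05 to 9.71 (median 9.43) in 6 AggE mice. Saa1 A_52_P318673 ran from 8.51 to 9.82 (median 8.88) in Ctrl and from 8.57 to 9.32 (median 9.04) in AggE mice, and Saa3 from 6.83 to 7.45 (median 7.20) and from 6.91 to 7.38 (median 7.18). The groups overlapped fully, with Cy-5 changes of -0.24 (SE 0.51), -0.02 (SE 0.44) and -0.02 (SE 0.35).

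The change itself differed between 24 hrs and the later points. In Cy-5 the 24 hr change exceeded that at 1.5 wks by 6.70 for Saa2 (SE 0.80, limma adjusted p = 1.59e-05), 6.16 for Saa1 A_52_P318673 (SE 0.72, limma adjusted p = 1.59e-05) and 4.61 for Saa3 (SE 0.58, limma adjusted p = 1.96e-05). After the 10-day stressor it exceeded that at 4 wks by 5.92 (SE 0.76, limma adjusted p = 5.55e-05), 5.30 (SE 0.67, limma adjusted p = 5.55e-05) and 3.48 (SE 0.54, limma adjusted p = 0.00123). Of the 6 probes 4 were called higher in each of these differences in Cy-5, where 0.0965% and 0.0502% of all probes were. By ratio, 2 of 6 passed, Saa1 A_52_P318673 at 3.84 and 3.83 and Saa3 at 4.23 and 3.36, where 0.0463% of all probes were called higher in each difference. With the slide as a random block the differences stayed about as large, 3.73 and 3.89 for Saa1 A_52_P318673 and 4.25 and 3.20 for Saa3, but their errors grew, and of these 4 ratio calls that of Saa3 against 1.5 wks alone remained (limma adjusted p = 0.016, against 0.194, 0.214 and 0.373 for the others). The 1.5 wk livers had a summed Cy-5 level of hepatocyte markers, as log2, of 13.78 to 14.78 in Ctrl and 14.41 to 15.50 in AggE mice, below the 15.87 to 16.90 of the other 6 groups, and the part of this in the difference to 1.5 wks was not tested. Ordered by mean Cy-5 level, AggE at 24 hrs post-5-day stressor came first and AggE at 24 hrs post-10-day stressor next for each Saa1, Saa2 and Saa3 probe, these neighbours differing by 0.41 to 1.08, less than the larger SD. A drop of 4.42, 4.26, 4.64 and 3.04 to the third group followed, with no shared values, and the 6 remaining groups formed a run in which each overlapped the next. The 24 hr and 4 wk arrays were scanned on different days, so between these groups scan day and time point cannot be told apart.

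**Figure D4:**
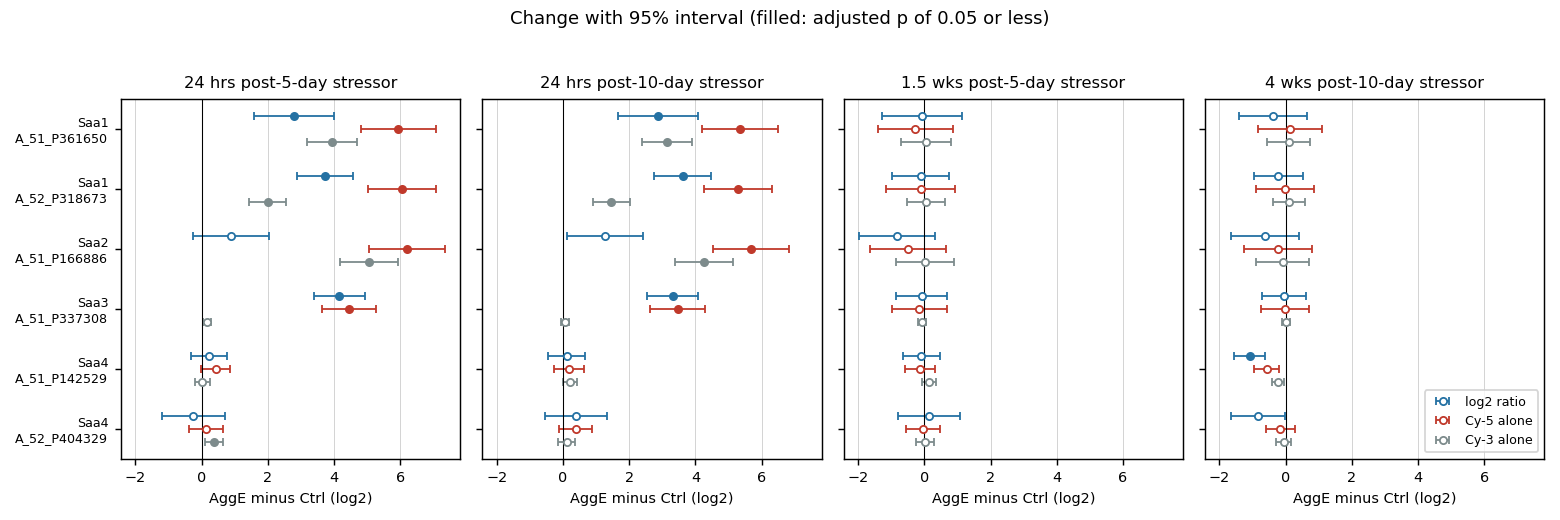
Change of AggE against Ctrl (horizontal axis, log2) with its 95% interval for each probe in the 4 comparisons, by log2 ratio (blue), Cy-5 alone (red) and Cy-3 alone (grey), filled where the limma adjusted p was 0.05 or less. At both 24 hr points the Cy-5 change of Saa1, Saa2 and Saa3 lies between 3.46 and 6.21 while the Cy-3 change of Saa2 reaches 5.06 and 4.25, and at 1.5 and 4 wks the intervals of these 3 genes include 0.

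Saa4, the constitutive form, was not called at either 24 hr point. Probe A_51_P142529 had Cy-5 levels of 9.37, 9.58, 9.87 and 9.61 in Ctrl and 10.26, 10.14, 9.53, 10.41 and 9.84 in AggE mice after the 5-day stressor, a change of 0.43 (SE 0.22, 95% interval -0.02 to 0.87, limma adjusted p = 0.264) with overlap. At 24 hrs post-10-day stressor its Cy-5 change was 0.19 (SE 0.22). Probe A_52_P404329 gave Cy-5 changes of 0.12 and 0.38 (SE 0.25 each) at these points, and the ratio changes of both probes ran from -0.25 to 0.40. The reference hardly lit these spots, since Cy-3 was well above background on 23 and 13 of 39 arrays, and the sign of the ratio change turned with the scaling. In Cy-5, setting the arrays to 1 median in place of quantiles gave -0.20 and -0.46 after 5 days, also uncalled. In Cy-3, A_52_P404329 was called at 24 hrs post-5-day stressor (0.37, limma adjusted p = 0.038) with overlapping groups and without being well above background on any of those arrays.

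At 4 wks post-10-day stressor the ratio of Saa4 A_51_P142529 was the one serum amyloid A value that was called, and it was lower in AggE mice. It ran from 4.99 to 6.02 (median 5.64) in Ctrl and from 3.52 to 5.10 (median 4.54) in AggE mice, a change of -1.09 (SE 0.23, limma adjusted p = 0.0126) where 1.98% of all probes were called lower and 3.19% in either direction, and the groups overlapped. Probe A_52_P404329 of the same gene changed by -0.83 (SE 0.40, limma adjusted p = 0.236). In Cy-5 alone, where 0.027% of all probes were called, the change of A_51_P142529 was -0.57 (SE 0.19, limma adjusted p = 0.225), and it was called only without AggE mouse 1 (-0.72, limma adjusted p = 0.0282). The ratio call ended in 8 of 16 alternatives, among them the processed signals (-0.03, limma adjusted p = 0.98), no background correction (-0.39, limma adjusted p = 0.281) and slide entered as a random block (-1.22, limma adjusted p = 0.0604). On the slide that held 1 AggE and 3 Ctrl mice the difference was -1.69 by ratio and -0.15 in Cy-5.

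In Cy-5, mice that were high for one of the inducible genes within their group tended to be high for the others, while by log2 ratio this held in part. With the group means removed, the Cy-5 levels correlated over the arrays at 0.96 and 0.97 between the Saa1 probes and Saa2, at 0.89 and 0.91 between Saa1 and Saa3, and at 0.82 between Saa2 and Saa3, over 38 or 39 arrays that share slides and dyes. Single mice weigh heavily in these values. AggE mouse 3 at 24 hrs post-5-day stressor had 12.33 for Saa2 and 9.06 for Saa3, against group means of 14.69 and 11.34. AggE mouse 4 at 1.5 wks had 11.23 and 8.10, against 8.56 and 7.07. The correlations were not tested without these mice. Saa4 had lower values in Cy-5, 0.43 to 0.66 with the Saa1, Saa2 and Saa3 probes. By log2 ratio the order was another: Saa3 had 0.34 and 0.54 with the Saa1 probes and 0.04 with Saa2, whereas Saa4 A_52_P404329 had 0.76 with Saa1 A_51_P361650 and 0.69 with Saa2. Among 8768 genes well above background on at least 50% of the arrays, each read by its brightest probe, those whose Cy-5 level went most like that of Saa1, Saa2 and Saa3, after these genes themselves, were Fgl1 (0.894 to 0.922), Ifi27l2b (0.906 to 0.928) and Apcs (0.904 to 0.920). These values keep the group means, so the difference between groups enters them. Fgl1 encodes a hepatocyte-secreted fibrinogen-like protein and Apcs serum amyloid P component, which binds amyloid. By ratio Apoa4 and the orosomucoids Orm1, Orm2 and Orm3 also came among the nearest, with r of 0.816 to 0.870. The Saa2 ratio went most like that of Saa1 A_51_P361650 (0.86), the dimmer Saa1 probe, which the search did not hold, and then like Pxmp2 (0.743), Aldh1a7 (0.726), Cfi (0.712), Aqp11 (0.707) and Isoc2b (0.697). With Saa4 A_52_P404329, also outside the search, it had 0.71, with Saa1 A_52_P318673 0.64 and with Saa3 0.46. Saa4 had other neighbours, by ratio Cdo1 (0.736), Pex11g (0.724), Sec14l4 (0.713), Acsm1 (0.686) and Slc22a18 (0.672) for A_51_P142529 and Gys2 (0.834), Fmo5 (0.831), F11 (0.828), Clec4f (0.821) and Dmgdh (0.819) for A_52_P404329. In Cy-5 their nearest genes were Actr10 (0.713) and Smarcd2 (0.583).

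The receptors and factors that act on SAA genes were measured by 17 of 18 listed genes, and 0 were called by ratio in the 4 comparisons, where 3.66% of all probes were called after 5 days, 0.0811% after 10 days, 0% at 1.5 wks and 3.19% at 4 wks, so 0 of 17 is near the share of all probes. Their median ratio change at 24 hrs was -0.01 after 5 days and 0.05 after 10 days, against 0.003 and -0.004 over all probes. Il6st, the shared receptor chain of IL-6, changed by -0.03 (SE 0.08) and 0.05 (SE 0.08), and Il1r1, the IL-1 receptor, by -0.01 (SE 0.22) and 0.35 (SE 0.22). The IL-6 receptor Il6ra was well above background on none of the 9 arrays after 5 days. In Cy-5 alone, Tnfrsf1a, a TNF receptor, was called higher at 24 hrs post-5-day stressor (0.48, SE 0.12, limma adjusted p = 0.0202), where 2.19% of all probes were. Of the 15 receptors and partners of SAA proteins, 0 were called at 24 hrs or 1.5 wks, and Tlr4, the lipopolysaccharide receptor, was called lower at 4 wks by ratio (-0.39, SE 0.10, limma adjusted p = 0.029), with 5 of 12 arrays well above background. Counts of 0 or 1 of 15 are near the shares of all probes just given. Transcript levels say nothing of the activity of these proteins.

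Genes beside the SAA cluster showed no change of the size seen for Saa1, Saa2 or Saa3. Of 8 on the array, Hps5 (limma adjusted p = 0.0378) and Uevld (limma adjusted p = 0.00452) were called by ratio at 24 hrs post-5-day stressor, where 3.66% of all probes were called in either direction. Both were well above background on 0 of 9 arrays, so no change is given for either. Ldha, a lactate dehydrogenase chain, was not called at 0.45 (SE 0.17, limma adjusted p = 0.149), nor was Tsg101, a sorting protein, at -0.13 (SE 0.09). In the other 3 comparisons 0 of 8 were called by ratio, which with 0% to 3.19% of all probes called is no result about these genes.

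Further positive acute phase genes rose in part. By ratio 7 of 20 were called higher, where 1.59% of all probes were, and 0 lower at 24 hrs post-5-day stressor, with a median change of 0.51 over the 20 genes. Lcn2, which encodes the siderophore-binding protein lipocalin 2, had a mean log2 ratio of 3.17 in AggE and -0.28 in Ctrl mice (limma adjusted p = 3.13e-08), but was well above background on 5 of 5 AggE and 0 of 4 Ctrl arrays, so its Ctrl level is a bound and no change is given. The others were Serpina3n, a protease inhibitor, at 2.38 (SE 0.40), Orm3 at 2.27 (SE 0.39), Apcs at 2.25 (SE 0.25), Orm2 at 1.61 (SE 0.30), Itih3 of the inter-alpha-trypsin inhibitor family at 1.45 (SE 0.39) and ceruloplasmin, Cp, at 0.70 (SE 0.18). Orm1 was not called at 1.31 (SE 0.44, limma adjusted p = 0.0874). The point estimates given for these genes other than Lcn2 lay below the 4.16 of Saa3, whose change ranked 2 of 25903 by ratio. At 24 hrs post-10-day stressor 3 of 20 were called higher by ratio, where 0.0695% of all probes were, namely Lcn2, Orm3 (1.97, SE 0.39) and Apcs (1.85, SE 0.25), with a median of 0.23. In Cy-5 alone, 8 and 7 of 20 were called higher at these points, against 2.19% and 0.0965% of all probes, and Hamp, which encodes hepcidin, was called lower after 5 days (-1.78, SE 0.53, limma adjusted p = 0.0478). At 1.5 wks 0 of 20 were called. At 4 wks Serpina3n (1.32, SE 0.35) and Crp (0.66, SE 0.18) were called higher by ratio, with 0 of 20 called in Cy-5 alone. By ratio 3.19% of all probes were called in either direction there, 1.98% of all probes being called lower and the rest higher.

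All 6 hepatocyte markers on the array, Alb and Ttr among them, were well above background on 39 of 39 arrays. Their summed Cy-5 level, as log2, was 16.21 to 16.41 in Ctrl and 16.53 to 16.90 in AggE mice 24 hrs after 5 days, which do not overlap, and 16.31 to 16.60 and 16.35 to 16.73 after 10 days. The 6 include Fgb, which is also in the list of further positive acute phase genes, so this sum is no measure of hepatocyte content alone. After 5 days 1 of the 6 was called higher in Cy-5 alone, where 2.19% of all probes were, and 0 were called by ratio. Of other cells that can make Saa3, the summed level of 7 Kupffer cell or macrophage markers was 10.55 to 10.97 in Ctrl and 10.87 to 11.24 in AggE mice after 5 days, and 10.08 to 10.60 and 10.58 to 10.91 after 10 days. Of the 7, Marco, a macrophage scavenger receptor, was called higher in Cy-5 alone after 5 days (0.92, SE 0.23, limma adjusted p = 0.0173), where 2.19% of all probes were, and 0 were called by ratio, where 3.66% were in either direction. The summed level of 7 adipocyte markers was 9.12 to 9.52 and 9.31 to 9.64 after 5 days and 9.34 to 9.84 and 9.47 to 9.89 after 10 days. Of these 7, Fabp4 was called higher by ratio after 5 days (1.26, SE 0.37, limma adjusted p = 0.0461), where 1.59% of all probes were. At 24 hrs Fabp4 was well above background on 18 of 18 arrays, Cfd on 14, Cidec on 12, Adipoq on 6, Lep on 5, Retn on 4 and Plin1 on 0. Of 8 neutrophil markers, 7 were well above background on 0 of those 18 arrays and S100a9 on 14, with summed levels of 9.07 to 9.13 in Ctrl and 9.07 to 9.25 in AggE mice after 5 days. The part of macrophages and adipocytes in the Saa3 signal was not tested.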

How the data were processed

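The authors scanned Agilent whole mouse genome arrays and quantified each spot with Feature Extraction (version 11.5.1.1 per the file headers, while the methods name another version). The deposited intensity values are the median spot signals of Cy-5 (liver) and Cy-3 (reference), each with its local background, before normalization by the authors. They also deposited log10 ratios of red over green, which equal those of the scanner output within 0.005. Here median intensities were corrected by normexp (offset 50), normalized by loess within and quantiles between arrays with limma 3.58.1 in R 4.3.3, and fitted as log2 ratios with 1 mean per group over 39 arrays. Spots flagged as outliers were set to missing. A probe was called when its p, adjusted by Benjamini-Hochberg over all probes, was 0.05 or less among 25903 RefSeq probes. The same fit was run on each channel alone. Differences between genes within a mouse were tested by exact two-sided permutation over mice, adjusted over 24 tests, with the brightest probe per gene. Code was tested on simulated data. Symbols came from a RefSeq table (GRCm38.p6), which matched 94.1% of RefSeq probes, and promoters were aligned with Biopython 1.88. Named were all serum amyloid A probes, the 5 genes whose log2 ratio correlated most with each, listed genes that were called, and the first 3 of each list. The members and lists were chosen with earlier results of these data known. The number of mice limits the precision. Alternatives changed the background correction, offset, normalization, signal, samples in the fit, weights and slide or replicate blocks, and left out each mouse in turn.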

Additional observations from a re-analysis of the deposited data

Results flagged for a closer look

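In the 24 hrs post-5-day AggE group, mouse 3 lay far below its 4 group mates in Cy-5 level at the Saa1 probes (11.25 at A_51_P361650, 11.86 at A_52_P318673), at Saa2 (12.33) and at Saa3 (9.06). In the 1.5 wks post-5-day AggE group, mouse 4 lay far above its mates in Cy-5 level at Saa1 A_52_P318673 (10.32), Saa2 (11.23) and Saa3 (8.10), and in the log2 ratio of Saa1 A_52_P318673 (4.03). These probes are correlated, so the values of 1 mouse are not separate observations. Single mice also stood apart in the log2 ratio of Saa3 (highest AggE mouse at 4 wks, -0.18), of Saa4 A_51_P142529 (highest Ctrl mouse at 24 hrs post-10-day stressor, 5.22) and of Saa4 A_52_P404329 (lowest Ctrl mouse at 4 wks, 4.20), and in the Cy-5 level of the last probe (lowest Ctrl mouse at 4 wks, 8.97). The limit is Dixon's 95% critical value, which by its definition about 1 in 20 groups of normally distributed values passes by chance.

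The AggE change differed between 24 hrs and the later point of the same regimen by limma's test of that difference. In Cy-5 the 24 hr change was larger than at 1.5 wks and 4 wks by 6.21 and 5.21 for Saa1 A_51_P361650, 6.16 and 5.30 for Saa1 A_52_P318673, 6.70 and 5.92 for Saa2, and 4.61 and 3.48 for Saa3. By log2 ratio it was larger by 3.84 and 3.83 for Saa1 A_52_P318673 and by 4.23 and 3.36 for Saa3.

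The Cy-3 channel, which held the common reference, was brighter on AggE than on Ctrl arrays 24 hrs after the 5-day and the 10-day stressor by 5.06 and 4.25 at Saa2, 3.93 and 3.14 at Saa1 A_51_P361650, and 1.99 and 1.46 at Saa1 A_52_P318673. For Saa1 A_51_P361650, Cy-3 was not well above background in some of these Ctrl mice. At Saa4 A_52_P404329 the Cy-3 channel was higher by 0.37 after 5 days. The cause was not tested.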

How the results depend on the processing

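Saa1 A_52_P318673 and Saa3 stayed called higher at both 24 hr points under all 15 alternatives that could be fitted there. On the log2 ratio scale the changes after 5 and 10 days were 3.14 to 4.44 and 3.40 to 3.66 for Saa1 A_52_P318673 and 4.04 to 5.39 and 3.09 to 4.41 for Saa3, and in Cy-5 alone 6.05 and 5.28, and 4.45 and 3.46. The number of serum amyloid A probes called stayed at 3 after 5 days and ran from 2 to 3 after 10 days as mice were left out. At 4 wks the 1 call became 0 with no background correction, processed signals, an offset of 0, Cy-5 alone, the deposited log ratios, the fit of both groups alone, and slide taken as random or fixed block, and stayed at 1 with any mouse left out. In Cy-5 alone that count ran from 0 to 1. The 2 calls in the difference of 24 hrs and 1.5 wks became 4 in Cy-5, 1 in the fit of the groups concerned and 1 with slide as random block, and ran from 2 to 3 with mice left out, 3 without AggE mouse 4 of 1.5 wks. The 2 calls in the difference of 24 hrs and 4 wks became 4 in Cy-5, 4 in the fit of the groups concerned and 0 with slide as random block. The count of gene pairs told apart ran from 0 to 12 with mice left out, being 0 without any 1 of the 10 AggE mice of the 24 hr groups, where 4 against 4 mice raise the smallest p that permutation allows, so that the 0 says nothing about stability, and 8 to 12 without any other mouse.

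Directions turned as follows, all for log2 ratios unless stated. With processed signals and with the deposited log ratios, the 24 hrs post-5-day change was -0.04 and -0.02 for Saa1 A_51_P361650, -0.03 and -0.03 for Saa2, and -0.23 and -0.23 for Saa4 A_51_P142529. At 24 hrs post-10-day stressor it was -0.06 and -0.07 for Saa2, -0.25 and -0.26 for Saa4 A_51_P142529, and -0.27 and -0.26 for Saa4 A_52_P404329, and at 1.5 wks -0.11 and -0.11 for the last. Offsets of 16 and 0 gave -0.17 and -0.63 for Saa2 after 5 days, and -0.33 and -0.38 for Saa4 A_51_P142529 after 10 days, which was -0.11 with 16 after 5 days. An offset of 0 gave -0.32 (24 hrs post-10-day) and -0.08 (1.5 wks) for Saa4 A_52_P404329. Without normalization between arrays and with Aquantile alike, values were -0.82 and -0.73 for Saa4 A_51_P142529 at the 24 hr points, -0.40 for Saa4 A_52_P404329 after 10 days and 0.05 for Saa3 at 4 wks. In Cy-5 alone they were 0.13 for Saa1 A_51_P361650 at 4 wks (0.14 with no background correction), and 0.12 (24 hrs post-5-day) and -0.04 (1.5 wks) for Saa4 A_52_P404329, which gave -0.18 and -0.80 at 1.5 wks with slide as random and as fixed block. Array weights gave 0.04 for Saa1 A_52_P318673 at 1.5 wks and 0.02 for Saa3 at 4 wks. With mice left out, the 1.5 wk changes spanned -0.79 to 0.43 and -0.69 to 0.29 for Saa1, -0.31 to 0.03 for Saa3, and -0.18 to 0.04 and -0.31 to 0.70 for Saa4, the 4 wk change of Saa3 spanned -0.13 to 0.01, and the 24 hrs post-10-day change of Saa4 A_51_P142529 spanned -0.04 to 0.26. The causes were not tested.

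The replicate numbers did not pair the mice, with correlations of -0.42 to 0.49 between same-numbered deviations. With the replicate block 3, 2, 0 and 1 serum amyloid A probes were called in the 4 comparisons and 0, 2 and 2 in the 3 differences. The slide as a fixed block could not be fitted at 24 hrs or for the differences.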
